A study of Mus musculus with 9 samples.

Results

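Transcripts of 9 genes of polyamine synthesis and hypusination were followed through mouse fetal erythroid maturation and through short cultures of an early erythroid progenitor. The genes were Odc1, Srm, Sms, Amd1, Azin1, Oaz1, Sat1, Eif5a and Dhps, chosen by name among the 19840 gene names in the data, and all 9 were measured. RNA-seq was done on cells of the fetal liver (C57BL/6 mice, embryonic day 13.5 to 14.5), and the series asked how the hypoxia factor HIF-1 and glucocorticoids act together in BFU-E self-renewal. BFU-E (burst-forming units-erythroid) are early committed red cell progenitors, and CFU-E (colony-forming units-erythroid) are later ones. Each of the 9 conditions had 1 library, so differences between fresh populations have no replicate check and no test.

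The fresh groups were defined by surface markers. BFU-E and CFU-E were Kit-positive and lacked CD34, CD41, CD16/32 and Ter119 as well as the lymphoid and myeloid antigens CD3, B220, Gr-1 and Mac-1. Among these cells, BFU-E were the 10% with the least CD71, the transferrin receptor, and CFU-E the 20% with the most. Ter119+ erythroblasts carried the red cell antigen Ter119 and lacked Kit.

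The cultured groups were BFU-E given SCF (100 ng/mL), IGF-1 (40 ng/mL) and EPO (2 U/mL) without serum for 4 h, and the agents for another 4 h. From the CD71 sort, cells received 100 nM dexamethasone (Dex, a synthetic glucocorticoid) or water. The CD71/CD24a sort took the 10% of cells lowest for both CD71 and CD24a. Its 4 arms received Dex with 333 µM DMOG, Dex alone, DMOG alone or water. DMOG (dimethyloxalylglycine) stabilises HIF, because it blocks prolyl hydroxylases whose modification of HIF alpha subunits leads to their breakdown. All cultures therefore shared the growth factors, and the arms of a sort shared 1 cell preparation.

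Polyamines are small positively charged molecules that bind nucleic acids. Ornithine decarboxylase (Odc1) makes putrescine. Spermidine synthase (Srm) and spermine synthase (Sms) then add aminopropyl groups from decarboxylated S-adenosylmethionine, which S-adenosylmethionine decarboxylase (Amd1) supplies. Antizyme (Oaz1) binds ornithine decarboxylase and sends it to the proteasome, and antizyme inhibitor (Azin1) sequesters antizyme. Spermidine/spermine acetyltransferase (Sat1) starts breakdown and export. Deoxyhypusine synthase (Dhps) moves a part of spermidine onto 1 lysine of the translation factor eIF5A (Eif5a), the first step of hypusination, and deoxyhypusine hydroxylase (Dohh) completes it. In red cell precursors the pathway is known for supporting proliferation.

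The lysine that receives hypusine lies in a stretch that Eif5a and its paralog Eif5a2 share. The stretches are shown because Eif5a2 passed the 2-fold rule upward in Ter119+ cells and Eif5a did not. They are codons 44 to 56 of GENCODE M21 coding sequences (GRCm38), in transcript sense, with codon 50, the lysine codon, in capitals. Eif5a lies on chromosome 11 (69916714 to 69921958, minus strand) and Eif5a2 on chromosome 3 (28781276 to 28798846, plus strand).
Eif5a: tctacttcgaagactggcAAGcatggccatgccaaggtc
Eif5a2: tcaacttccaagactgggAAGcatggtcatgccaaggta
Of these 39 bases 34 were identical, and the lysine codon was the same in both genes.

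Antizyme is made only when the ribosome shifts frame at the stop codon of a short first reading frame, a shift that polyamines favour, so an Oaz1 transcript level does not give the amount of antizyme. The 30 bases around that stop codon, in capitals, come from the GENCODE M21 transcript, in transcript sense. Oaz1 lies on chromosome 10 (80826656 to 80829290, plus strand, GRCm38).
Oaz1: cggtggtgctccTGAtgtccctcacccacc

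The deposited levels were RPKM, read counts scaled for transcript length and for library depth. To compare libraries, all values of a library were divided by its factor (a median ratio over 6888 genes), and the result is called normalised RPKM. Recovered depth ran from 11.9 M reads in the CD71 sort water culture to 52.8 M in the culture with both agents. The Ter119+ library stood apart: its factor was 0.419, against 1.02 to 1.18 in the other 8, and globin transcripts made up 38.1% of its summed RPKM. The counts of this library's differences, and the values of members whose call or direction depends on the factor, are therefore also given as deposited. Erythroid markers summed to 483 normalised RPKM in BFU-E, 935 in CFU-E and 2.0952e+05 in Ter119+ cells, and all 8 measured markers reached at least 1 in each of these libraries. In bulk samples, fewer cells of a type and less RNA per cell cannot be told apart.

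Sequence sharing limits some members. Of the 32-base words of Amd1 92.1% also occurred in other genes or pseudogenes, mostly in Amd2, and the Amd2 record held 1.0004 to 1.0019 times the Amd1 value in the 9 libraries, so Amd1 stands for both. For Oaz1 58.2% of words also occurred in the pseudogene Oaz1-ps, and for Odc1 51.4% occurred in 21 other genes, led by Gm7993. Shares were 29.03% for Sms, 17.1% for Sat1, 14.5% for Eif5a, 10.3% for Srm, 7.45% for Dhps and 6.88% for Azin1. How the authors assigned such reads was not given in the sources used here.

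**Figure D1:**
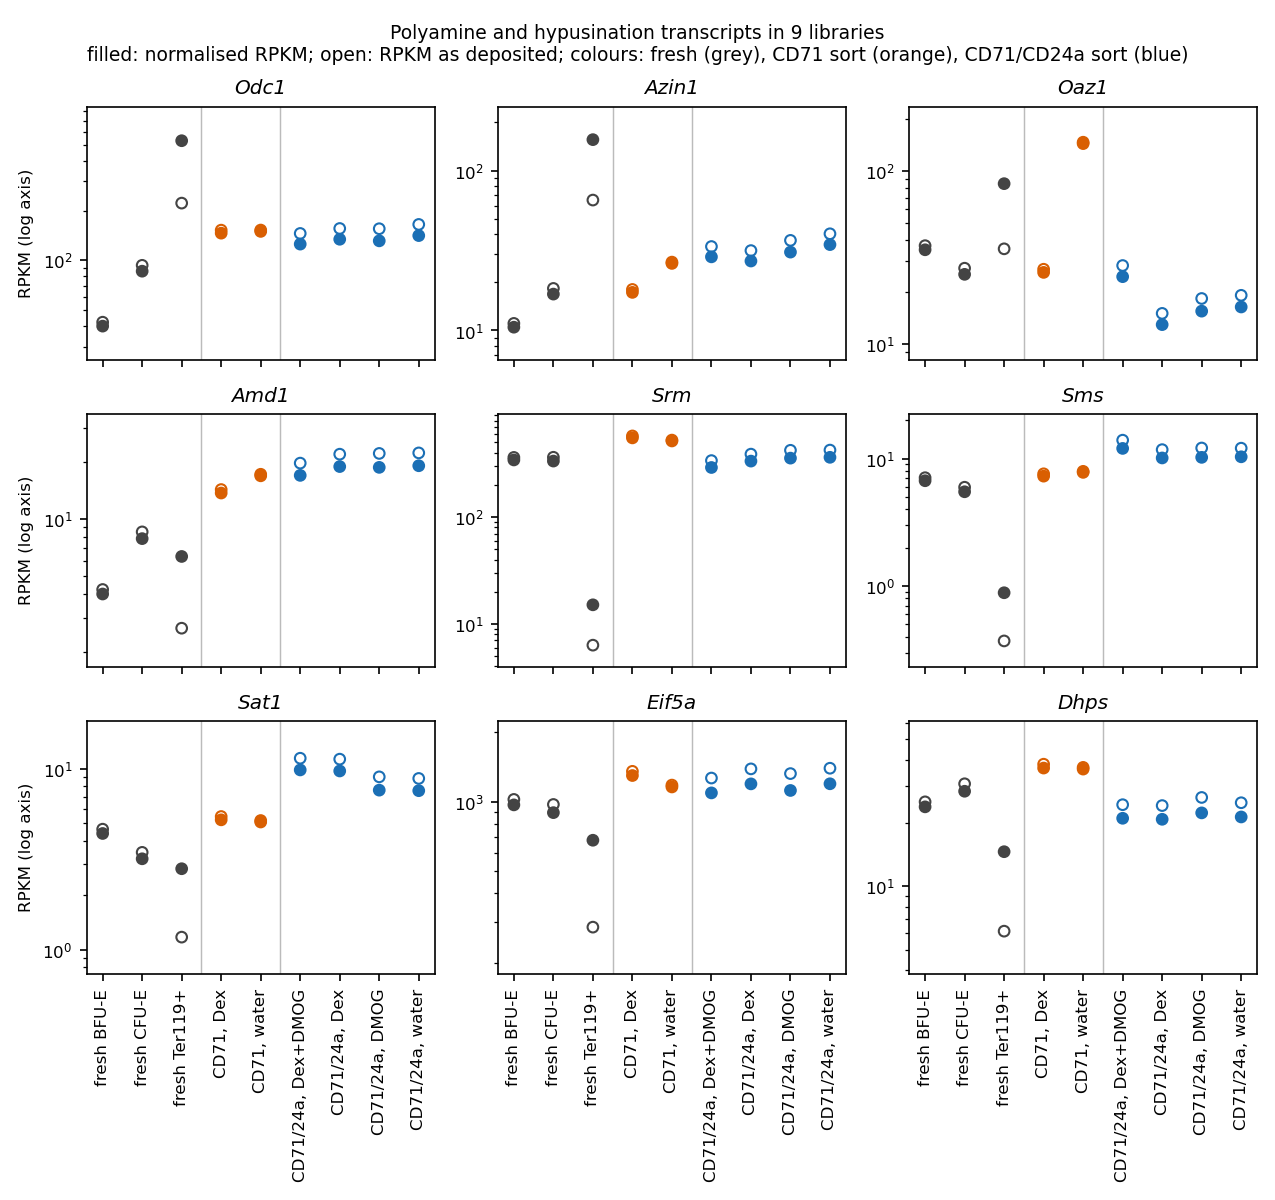
Levels of the 9 members in the 9 libraries, 1 point per library, on log axes. Filled circles are normalised RPKM and open circles RPKM as deposited; grey marks fresh cells, orange the CD71 sort and blue the CD71/CD24a sort. Odc1 and Azin1 peak in Ter119+ cells, where Srm and Sms are lowest, and Oaz1 stands at 144 in the CD71 sort water culture.

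The first question was how the pathway differs between the later and the earlier progenitor. In CFU-E the rate-limiting enzyme gene Odc1 was at 85.9 normalised RPKM, against 39.9 in BFU-E, a ratio of 2.15 (exact 95% interval 2.04 to 2.27, from recovered reads, covering counting error only). It was the member that passed the rule used for fresh cells, a 2-fold or larger difference, which is 1 in units of log2(normalised RPKM + 1). By that rule 1 of 9 members was higher in CFU-E, against 3.32% of all 9947 genes compared, and 0 were lower, against 12.3%.

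The other inputs of the pathway stood under the rule. Amd1 was at 7.86 in CFU-E and 4.02 in BFU-E, a ratio of 1.96 that reached 0.82 on the log2 scale. Azin1 was at 16.9 in CFU-E and 10.5 in BFU-E. Its opponent Oaz1 was at 25.2 in CFU-E and 35.0 in BFU-E. The ratio of Odc1 to Oaz1 was thus 3.41 in CFU-E and 1.14 in BFU-E.

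The aminopropyl transferase genes differed little in these libraries. Srm was at 334 normalised RPKM in CFU-E and 342 in BFU-E, with an interval of the ratio (0.950 to 1.004) that touches 1. Sms was at 5.49 in CFU-E and 6.70 in BFU-E, far below Srm per transcript length in both. Sat1 was at 3.19 in CFU-E and 4.39 in BFU-E. Eif5a, at 897 in CFU-E and 969 in BFU-E, had the highest level of the 9 members in both libraries. Dhps was at 28.3 in CFU-E and 23.9 in BFU-E. The median log2 difference of the members was -0.03, beside -0.08 over all genes.

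Markers of other cells also differed between these libraries. The 10 neutrophil markers summed to 5.02 in CFU-E, where 2 reached 1, and to 99.4 in BFU-E, where 3 did, with S100a8 at 0 in both. Mpo (71.5) and Prtn3 (24.6) made up most of the BFU-E sum. S100a9, Ltf, Lcn2 and Ngp went the other way, each under 1 in both libraries. The 8 megakaryocyte markers summed to 19.0 in CFU-E (5 at 1 or more) and 93.9 in BFU-E (7), and the 8 hepatocyte markers to 12.2 (5) and 33.4 (6). The 9 macrophage markers summed to 0.780 in CFU-E (0 at 1 or more) and 3.05 in BFU-E (1), with Spic at 0 in both. The 4 early progenitor markers (Kit, Gata2, Cd34 and Myb), a list for stage and not for other cells, summed to 150.1 in CFU-E and 491 in BFU-E. The part of other cells or of stage in the Odc1 difference was not tested.

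Of 24 other pathway genes (antizyme system and breakdown, precursors, salvage, transport and hypusination) 18 reached the filter of 1 normalised RPKM in either library. Of these 0 were at least 2-fold higher in CFU-E (3.32% of all genes). The lysosomal polyamine transporter gene Atp13a2 was the 1 that was lower (12.3% of all genes), at 28.2 in CFU-E and 88.2 in BFU-E. Oat, which links ornithine to proline and glutamate, was at 129 in CFU-E and 103 in BFU-E, and Dohh was at 101 and 80.4, with 66.7% of its words shared with Gm48551.

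The second question was how the pathway differs between Ter119+ erythroblasts, which are filling with hemoglobin, and CFU-E. Odc1, Azin1 and Oaz1 were at least 2-fold higher in erythroblasts, and Srm and Sms at least 2-fold lower. That is 3 of 9 members higher, against 22.6% of 9530 genes, and 2 of 9 lower, against 28.8%. These shares lie near the background. As deposited, 2 members were higher (8.46% of genes) and 6 lower (60.3% of genes), the 6 being Srm, Sms, Amd1, Sat1, Eif5a and Dhps.

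Odc1 was at 529 normalised RPKM in Ter119+ cells, against 85.9 in CFU-E, a ratio of 6.16 (5.95 to 6.39). As deposited it was 222 in Ter119+ cells and 93.2 in CFU-E, a ratio of 2.38, so the direction holds without the factors. Odc1 levels followed the order of the stages, 39.9 in BFU-E, 85.9 in CFU-E and 529 in Ter119+ cells.

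Azin1 was at 156 in Ter119+ cells, against 16.9 in CFU-E, a ratio of 9.24 (8.79 to 9.72). As deposited the ratio was 3.57. It was the largest upward difference among the members. Oaz1 was at 84.6 in Ter119+ cells, against 25.2 in CFU-E, a ratio of 3.35 (3.01 to 3.74). As deposited that ratio was 1.30, under 2-fold.

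Srm was at 15.1 in Ter119+ cells, against 334 in CFU-E, which is a ratio of 22.2 the other way (18.9 to 26.3), and 57.4 as deposited. Sms was at 0.887 in Ter119+ cells, against 5.49 in CFU-E, with 24 recovered reads in Ter119+ cells. As deposited Sms was at 0.372 in Ter119+ cells and 5.96 in CFU-E, so both genes kept their direction, and both were near one level in CFU-E and BFU-E. Within a library, where the factors cancel, the ratio of Odc1 to Srm was 0.117 in BFU-E, 0.257 in CFU-E and 35.1 in Ter119+ cells. In the 6 cultures it was 0.265 to 0.431, so Ter119+ cells were the population in which Odc1 exceeded Srm.

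The other 4 members stood within 2-fold in normalised RPKM. Amd1 was at 6.33 in Ter119+ cells and 7.86 in CFU-E. Sat1 was at 2.81 in Ter119+ cells and 3.19 in CFU-E, with 24 and 95 recovered reads and an interval of the ratio of 0.544 to 1.41. Eif5a was at 680.3 in Ter119+ cells and 897 in CFU-E, so it remained the most abundant of the members in each population. Dhps was at 14.6 in Ter119+ cells and 28.3 in CFU-E, just inside 2-fold at -0.91 on the log2 scale. As deposited all 4 were past 2-fold downward, at ratios of 0.311 for Amd1, 0.340 for Sat1, 0.293 for Eif5a and 0.199 for Dhps. The median log2 difference of the members was -0.27, beside -0.21 over all genes, and as deposited -1.38, beside -1.30.

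**Figure D2:**
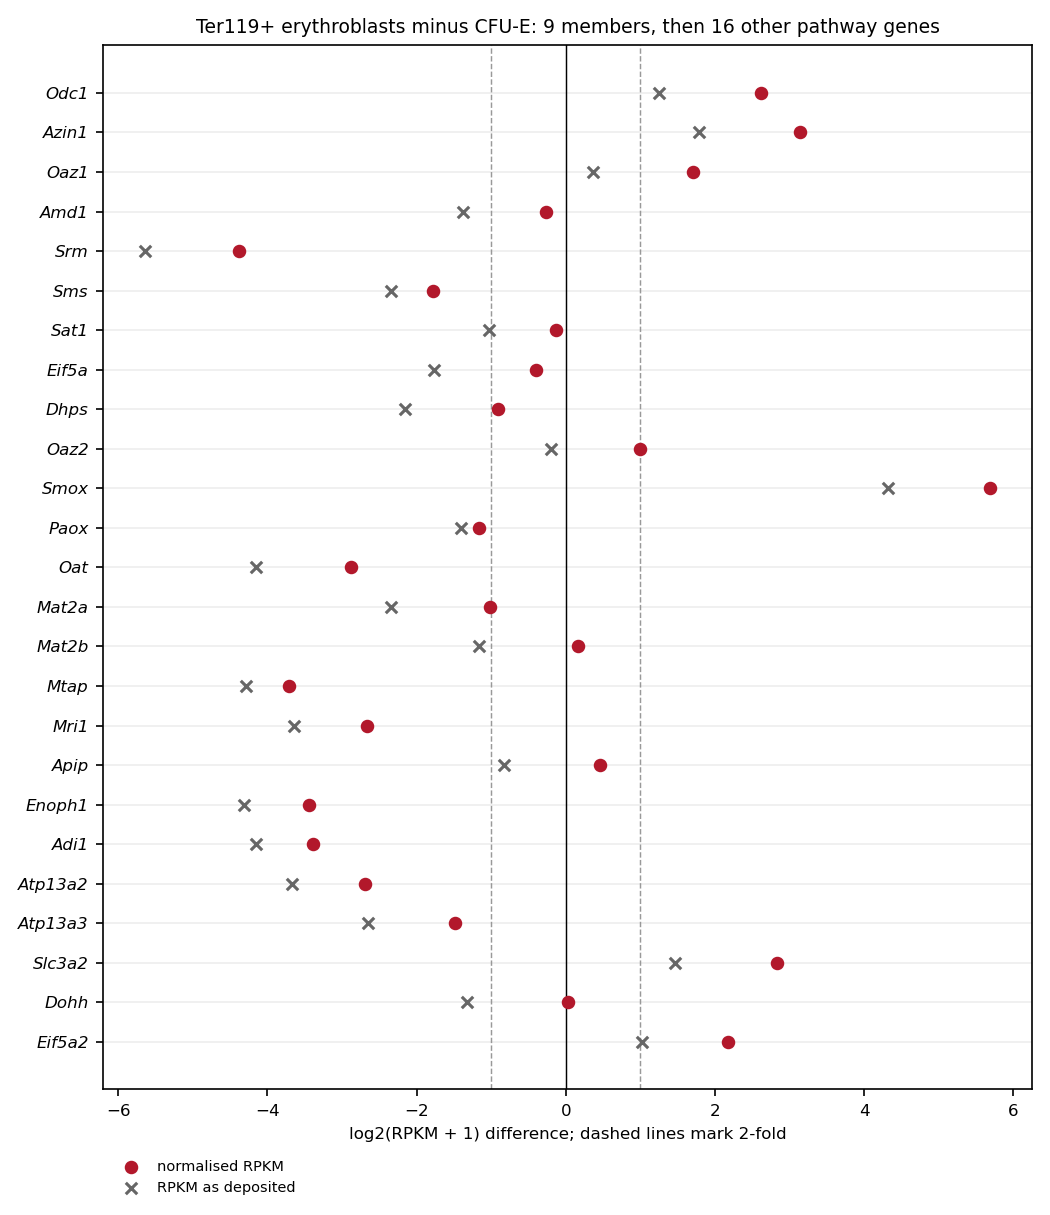
Difference between Ter119+ erythroblasts and CFU-E on the scale of log2(RPKM + 1) for the 9 members and for the 16 other pathway genes that also passed the filter of the culture test. Red circles are normalised RPKM, grey crosses RPKM as deposited, and dashed lines mark 2-fold. Smox lies farthest to the right at 5.68, Srm farthest to the left at -4.38, and without the factors each gene lies further left.

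Of the 24 other pathway genes 18 passed the filter, of which 4 were at least 2-fold higher in Ter119+ cells (22.6% of all genes) and 10 lower (28.8%). As deposited 17 passed, of which 3 were higher (8.46%) and 12 lower (60.3%), Agmat leaving the first group and Mat2b and Dohh joining the other. The spermine oxidase gene Smox, which turns spermine back into spermidine, was at 743 in Ter119+ cells and 13.5 in CFU-E, a ratio of 55.1 (21.3 as deposited). Slc3a2, the heavy chain of amino acid transporters that has also been linked to polyamine export, was at 473 in Ter119+ cells and 65.5 in CFU-E. Eif5a2 was at 10.4 in Ter119+ cells and 1.52 in CFU-E, while Eif5a, its paralog with the same lysine codon, was at 680.3 and 897. Agmat, which forms putrescine from agmatine, was the fourth, at 1.45 in Ter119+ cells and 0.0550 in CFU-E. These values rest on 15 and 2 recovered reads. Agmat passed the filter only through the Ter119+ library and only with the factor, being at 0.609 there as deposited.

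Salvage of methylthioadenosine, the side product of spermidine and spermine synthesis, was low beside Srm. Of its 5 listed genes 4 were at least 2-fold lower in Ter119+ cells (28.8% of all genes). The phosphorylase gene Mtap, the first salvage step, was at 0.904 in Ter119+ cells and 24.0 in CFU-E. Adi1 was at 1.63 in Ter119+ cells and 26.6 in CFU-E, Enoph1 at 2.41 and 36.1, and Mri1 at 3.43 and 27.0. The dehydratase gene Apip stood within 2-fold, at 24.4 in Ter119+ cells and 17.5 in CFU-E, and as deposited its direction turned, at 10.2 in Ter119+ cells and 19.0 in CFU-E. As deposited the same 4 salvage genes were at least 2-fold lower (60.3% of all genes) and 0 of 5 were above CFU-E (17.9% of all genes). The median log2 difference of the 5 was -3.39, beside -0.21 over all genes, and as deposited -4.15, beside -1.30.

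The lower genes outside salvage were Oat (16.5 in Ter119+ cells and 129 in CFU-E), Mat2a (38.0 and 77.9), which makes S-adenosylmethionine, Paox (0.235 and 1.76), an oxidase of acetylated polyamines, and the transport genes Atp13a2 (3.52 and 28.2), Atp13a3 (8.37 and 25.3) and Slc18b1 (listed at 0 and at 2.33). Dohh was at 103 in Ter119+ cells and 101 in CFU-E, but as deposited at 43.1 and 109.5, a ratio of 0.394. Mat2b, a regulatory subunit gene for Mat2a, was at 37.1 in Ter119+ cells and 33.1 in CFU-E, but as deposited at 15.5 and 35.9, a ratio of 0.432.

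Markers of other cells also differed between these libraries. The 10 neutrophil markers, all at 1 or more in Ter119+ cells, summed to 212 there and to 5.02 in CFU-E, where 2 reached 1. Of 9 measured macrophage markers 6 reached 1 in Ter119+ cells, with a sum of 32.0, against 0 and 0.780 in CFU-E; Spic was at 0 in both. Megakaryocyte markers summed to 94.4 in Ter119+ cells and 19.0 in CFU-E, and hepatocyte markers to 27.8 and 12.2. Their part in the differences of Odc1, Azin1, Oaz1 or Smox was not tested.

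Between the ends of the series, Ter119+ cells and BFU-E, the rule again put Odc1, Azin1 and Oaz1 higher (21.2% of 10249 genes) and Srm and Sms lower (35.8%). Odc1 was 13.3 times and Azin1 14.9 times as high in Ter119+ cells. The Oaz1 ratio was 2.42, but 0.959 as deposited, so the direction of Oaz1 depends on the factors. So does that of Amd1, with a ratio of 1.58, but 0.625 as deposited. As deposited 2 members were higher, Odc1 and Azin1 (8.97% of genes), and 5 lower, Srm, Sms, Sat1, Eif5a and Dhps (62.0% of genes). The ratios of Sat1, Eif5a and Dhps were 0.639, 0.702 and 0.612 with the factors and 0.253, 0.278 and 0.243 as deposited. Of the 24 other pathway genes 19 passed the filter, of which 4 were higher and 10 lower. They were the genes named against CFU-E, except that Oaz3 took the place of Mat2a among the lower ones. Oaz3 was at 0.120 in Ter119+ cells, from 1 recovered read, and at 1.26 in BFU-E. As deposited 18 passed, with 3 higher and 12 lower. Oaz2, Mat2b, Apip and Dohh were above BFU-E with the factors and below it as deposited.

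Myc and Mycn encode factors known to activate Odc1 transcription. Myc was at 284 in BFU-E, 136 in CFU-E and 9.30 in Ter119+ cells, and Mycn at 5.54 in BFU-E, 0.0297 in CFU-E and 0.0524 in Ter119+ cells, the last from 1 recovered read. Odc1 ran in the opposite order to Myc over the 3 populations, and Srm stood low together with Myc in Ter119+ cells. These are single libraries, and a part of Myc or Mycn in the levels of Odc1 or Srm was not tested. The E-box CACGTG, the core letters that MYC with MAX binds, was searched on both strands in RefSeq promoter windows (GRCm38.p6, 250 bases before to 50 after a start site). It occurred in 7.15% of 32851 windows and in 4 of the 13 windows of members, of which 3 belong to Eif5a, 2 of these holding the same site, and 1 to Sms. The 1 window of Odc1 held no E-box, and bases outside the windows were not searched. Srm and Azin1 had no window. The windows with the matches outside exons are shown with the E-box in capitals, for Sms at chrX:157492466-157492495 and for Eif5a at chr11:69921443-69921472, both on the minus strand.
Sms: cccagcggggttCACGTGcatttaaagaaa
Eif5a: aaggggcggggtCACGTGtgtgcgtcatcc
Both are palindromic E-boxes, so the HIF core letters ACGTG, present in 19.6% of all windows, occurred in the same 4 member windows and within the E-box. The palindromic glucocorticoid element occurred in 0 of 13 member windows and in 0.00913% of all windows, and AGATAA, the letters of a GATA site, in 0 of 13 and in 11.2%. These are matches of letters in short windows and not measured sites.

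The next comparison set BFU-E after 8 h in culture with water in place of the agents against fresh BFU-E. Odc1, Amd1 and Azin1 were at least 2-fold higher in both water cultures. In the CD71 sort 4 of 9 members were at least 2-fold higher (6.27% of 10060 genes) and 0 lower (9.06%). In the CD71/CD24a sort 3 were higher (11.2% of 10080 genes) and 1 lower (12.9%). Both comparisons use the same fresh BFU-E library, which was gated on CD71 like the cells of the CD71 sort. Culture and library differ together in both comparisons. In the CD71/CD24a one the sort and the file processing (no value of 0) differ as well, so these cannot be told apart.

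Odc1 was at 149.6 normalised RPKM in the CD71 water culture and 141 in the CD71/CD24a water culture, against 39.9 in fresh BFU-E. Its levels in all 6 cultures, 125 to 149.6, lay above fresh BFU-E and fresh CFU-E and below Ter119+ cells. Amd1 was at 16.8 in the CD71 and 19.0 in the CD71/CD24a water culture, against 4.02 in fresh BFU-E, ratios of 4.19 (3.62 to 4.87) and 4.73 (4.14 to 5.44). Among the 9 libraries Amd1 was highest in cultured cells, and its 6 culture values of 13.7 to 19.0 all lay above the 3 fresh values.

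Azin1 was at 26.3 in the CD71 and 34.4 in the CD71/CD24a water culture, against 10.5 in fresh BFU-E. Oaz1 split by culture: it was at 144 in the CD71 water culture and 16.3 in the CD71/CD24a water culture, against 35.0 in fresh BFU-E. The CD71 water library was the 1 of 6 cultures with Oaz1 above fresh BFU-E. As deposited, the lower value in the CD71/CD24a culture stood inside 2-fold, at a ratio of 0.516.

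The remaining members stood within 2-fold of fresh BFU-E in both water cultures. Srm was at 515 in the CD71 and 362 in the CD71/CD24a culture, against 342. Sms was at 7.79 and 10.3 in those cultures, against 6.70, and Sat1 at 5.09 and 7.57, against 4.39. All 6 cultures lay above fresh BFU-E in Sms, Sat1 and Eif5a, the last at 1159.5 and 1197 in the water cultures against 969. Dhps was at 36.1 in the CD71 and 21.4 in the CD71/CD24a culture, against 23.9. The median log2 difference of the members was 0.59 in the CD71 and 0.56 in the CD71/CD24a sort, beside -0.08 and -0.09 over all genes.

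Among the other pathway genes Mat2a stood at 147 in the CD71 and 243 in the CD71/CD24a water culture, against 56.8 in fresh BFU-E. The polyamine transporter gene Atp13a3 was at 50.6 and 70.1 in those cultures, against 19.7, while Atp13a2 was at 29.9 and 23.5, against 88.2. After the CD71 sort these were the 2 of 18 genes higher (6.27% of all genes) and the 1 lower (9.06%). Cells of the CD71/CD24a sort also had higher Eif5a2 (4.62 against 0.562) and lower Oat (41.7 against 103). That made 3 of 18 genes higher (11.2% of all genes) and 2 lower (12.9%) in this sort. Neutrophil markers summed to 26.8 in the CD71 (4 of 10 at 1 or more) and 6.43 in the CD71/CD24a culture (2), against 99.4 in fresh BFU-E (3). S100a8 was at 0 in fresh BFU-E and the CD71 culture, and Elane at 0 in the CD71/CD24a culture. Mpo (71.5) and Prtn3 (24.6) made up most of the fresh BFU-E sum. S100a9, Lcn2, Ngp and Camp were higher in the CD71 culture than in fresh BFU-E, and S100a8 in the CD71/CD24a culture. Early progenitor markers, all 4 at 1 or more, summed to 146 and 169 in those cultures, against 491. Megakaryocyte markers summed to 34.5 (5 of 8 at 1 or more) and 40.8 (7), against 93.9 (7), and hepatocyte markers to 3.45 (2 of 8) and 13.6 (5), against 33.4 (6). Macrophage markers summed to 1.01 and 0.521 (0 of 9 in each), against 3.05 (1). Their part in these differences was not tested.

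**Figure D3:**
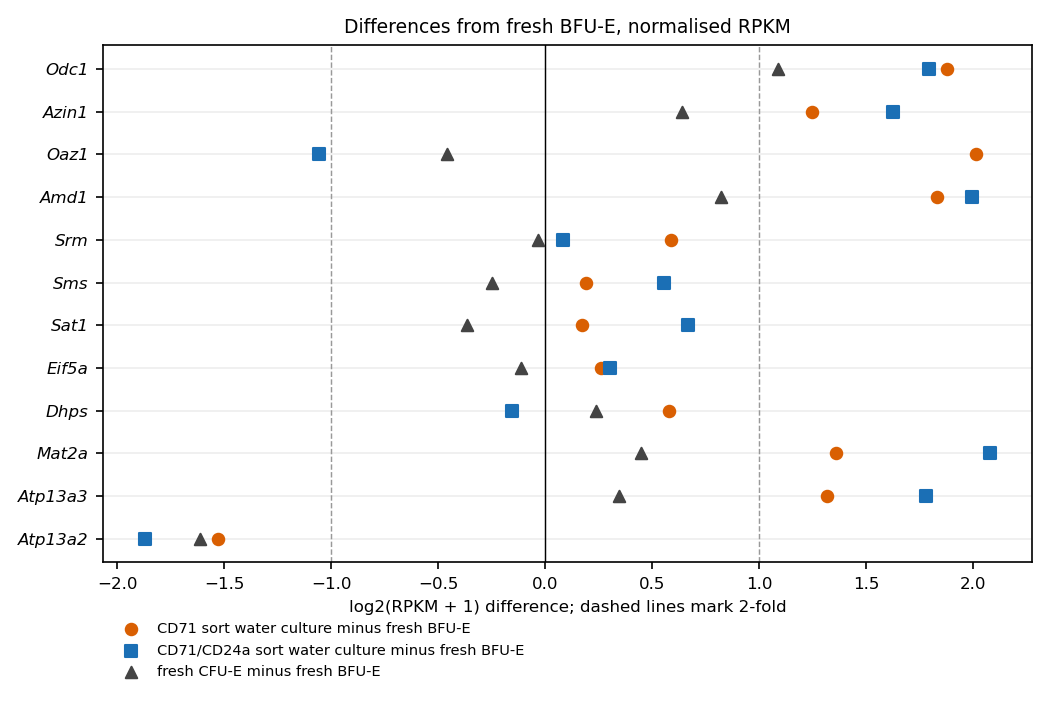
Differences from fresh BFU-E on the scale of log2(normalised RPKM + 1) for the 9 members and 3 other pathway genes. Orange circles are the CD71 sort water culture, blue squares the CD71/CD24a sort water culture, black triangles fresh CFU-E, and dashed lines mark 2-fold. Odc1, Azin1 and Amd1 lie right of 2-fold in both cultures, and Oaz1 lies at 2.01 in one culture and -1.06 in the other.

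Between the sorts, in water, Oaz1 was the 1 member past 2-fold. It was at 16.3 in the CD71/CD24a culture, against 144 in the CD71 culture, a ratio of 8.85 the other way (7.91 to 9.93), and 0 members were higher (1.44% of 9737 genes higher, 3.07% lower). With Dex, Oaz1 was at 12.9 in the CD71/CD24a and 25.9 in the CD71 culture, at -0.95 on the log2 scale, and 0 members passed (3.67% higher and 4.6% lower of 9688 genes). Dhps was under 2-fold in both arms, at 21.4 against 36.1 in water and 20.8 against 36.5 with Dex. With Dex, 2 of 17 other pathway genes were past 2-fold downward (4.6% of all genes), Paox and Dohh. Paox was at 1.65 in the CD71/CD24a and 5.10 in the CD71 culture. Dohh was at 34.4 in the CD71/CD24a and 98.2 in the CD71 culture. In water it was at 46.0 and 93.6, just past the rule at -1.01 on the log2 scale, and under it as deposited, at -0.82. The erythroid markers, all 8 at 1 or more, summed to 393 in the CD71/CD24a water culture and 1501.5 in the CD71 water culture, and to 297 and 900.5 with Dex. Their part in the Oaz1 difference was not tested. Sort, cell preparation and file processing differ together between these cultures, so they cannot be told apart.

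The Dex question was tested over the 6 cultures with limma, with the culture pair as a block, on 9535 genes. Dex-induced genes served as a check of the agent: Fkbp5 rose by 1.54, Tsc22d3 by 1.31 and Per1 by 1.57 on the log2 scale. Of the 9 members 0 rose and 0 fell at a limma adjusted p under 0.05, against 1.39% of genes that rose and 0.629% that fell. At an unadjusted p under 0.05, 2 members passed, Azin1 and Sat1, beside 1540 of 9535 genes (16.2%). A p that misses the threshold does not show that a gene did not respond.

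In 3 of 3 pairs, of which the CD71/CD24a pairs share 1 cell preparation, Azin1 was lower with Dex. It was at 17.3 with Dex and 26.3 with water in the CD71 sort, at 27.2 with Dex and 34.4 with water in the CD71/CD24a sort, and at 28.9 with both agents and 30.9 with DMOG. The difference was -0.33 (SE 0.10, 95% interval -0.58 to -0.09, limma adjusted p = 0.194). No value with Dex exceeded its partner, and the gap was widest in the CD71 sort.

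In 3 of 3 pairs, of which the CD71/CD24a pairs share 1 cell preparation, Sat1 was higher with Dex. It was at 5.23 with Dex and 5.09 with water in the CD71 sort, at 9.73 with Dex and 7.57 with water in the CD71/CD24a sort, and at 9.86 with both agents and 7.62 with DMOG. In the CD71 pair the difference was 0.03, and 89.2% of tested genes were at least as far from 0. The estimate over the 3 pairs was 0.23 (SE 0.091, 95% interval 0.01 to 0.45, limma adjusted p = 0.294). Without the CD71 pair, Sat1 rose by 0.33 (limma adjusted p = 0.0220), in a fit where 5.15% of all genes rose and 7.14% fell. Both pairs of that fit come from 1 preparation of cells.

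Oaz1 had the widest spread. In the CD71 sort it was at 25.9 with Dex and 144 with water, a difference of -2.43 that 25 of 9535 genes (0.262%) matched or exceeded in size. In the CD71/CD24a sort it was at 12.9 with Dex and 16.3 with water, and at 24.4 with both agents and 15.4 with DMOG. The pairs thus gave differences of -2.43, -0.32 and 0.63, and the estimate over them was -0.71 (SE 0.51, 95% interval -1.95 to 0.54, limma adjusted p = 0.537). Without the CD71/CD24a pair with DMOG, Oaz1 fell by 1.38 (limma adjusted p = 0.0423, with 1.56% of genes higher and 0.986% lower), and without the CD71 pair the estimate was 0.16. An interaction of Dex with the sort, added after these values were seen, gave a Dex difference 2.59 higher in the CD71/CD24a than in the CD71 sort (SE 0.27, limma adjusted p = 0.000144). It was the 1 member called, against 3.48% of genes higher and 2.55% lower (24.6% at an unadjusted p under 0.05). The CD71 side of this test is 1 pair, so sort and preparation cannot be told apart. The CD71 water library has the highest Oaz1 level of the 9, from 1825 recovered Oaz1 reads. Its depth, 11.9 M reads, was the lowest of the 9, and the source of the high value was not tested.

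The other 6 members gave Dex differences between -0.14 and 0.04. The 95% intervals were -0.21 to 0.10 for Odc1, -0.33 to 0.12 for Srm, -0.18 to 0.24 for Sms, -0.34 to 0.05 for Amd1, -0.15 to 0.24 for Eif5a and -0.20 to 0.13 for Dhps. Odc1 was at 146 with Dex and 149.6 with water after the CD71 sort. Cells of the CD71/CD24a sort held it at 134 with Dex and 141 with water, and at 125 with both agents and 131 with DMOG. The median of the 9 estimates was -0.06, beside -0.015 over all genes.

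**Figure D4:**
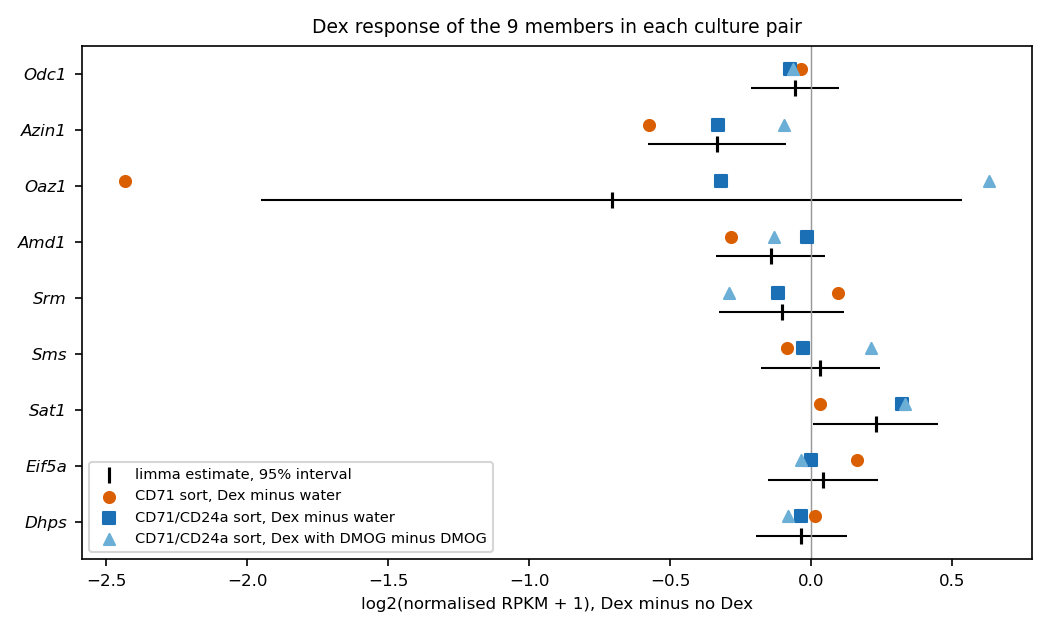
Dex response of the 9 members, as Dex minus no Dex on the scale of log2(normalised RPKM + 1). Circles, squares and triangles are the 3 culture pairs, and the black mark with its line is the limma estimate with its 95% interval. Oaz1 spans -2.43 to 0.63, while the 3 pairs of Odc1 lie between -0.07 and -0.04.

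Of the other pathway genes 16 of 24 were tested for Dex, and 0 passed over all genes with limma. At an unadjusted p under 0.05, 4 passed (16.2% of all genes). Atp13a3 was at 27.7 with Dex and 50.6 with water in the CD71 sort, at 50.4 with Dex and 70.1 with water in the CD71/CD24a sort, and at 52.2 with both agents and 65.0 with DMOG. Its difference of -0.54 (SE 0.11) had a limma adjusted p of 0.0800. Without the CD71/CD24a pair with DMOG, Atp13a3 fell by 0.66 (limma adjusted p = 0.0105), in a fit where 1.56% of all genes rose and 0.986% fell. The other 3 were Smox (0.39, limma adjusted p = 0.139), Paox (0.35) and Eif5a2 (-0.22). Mat2a was at -0.18, Dohh at -0.23, Oat at 0.13 and Slc3a2 at 0.01. The interaction of Dex with the sort, added for Oaz1, also passed the threshold for Atp13a3 (0.46), Apip (-0.59) and Dohh (-0.44). Each value is the Dex difference in the CD71/CD24a sort minus that in the CD71 sort. Its shares over all genes are given with Oaz1. The CD71 side is 1 pair, so sort and preparation cannot be told apart. Without the CD71 pair Smox rose by 0.26 and Atp13a2 (by 0.24), Atp13a3 (by 0.39) and Dohh (by 0.38) fell. In that fit 5.15% of all genes rose and 7.14% fell, and both of its pairs come from 1 preparation of cells. Mycn fell by 0.62 (limma adjusted p = 0.0321), at 1.99 with Dex and 3.16 with water in the CD71 sort, 1.42 with Dex and 2.99 with water in the CD71/CD24a sort, and 1.61 with both agents and 3.14 with DMOG. Myc was at -0.25 (limma adjusted p = 0.225).

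The DMOG response came from that fit as well and rests on the 4 arms of the CD71/CD24a sort. Its 4 check genes had higher values with DMOG, though none passed. The limma differences were 2.64 for Egln3 (adjusted p = 0.0915), 1.52 for Bnip3 (0.124), 0.49 for Pdk1 (0.353) and 0.39 for Pfkfb3 (0.933). Egln3 also rose with Dex, by 1.66 (limma adjusted p = 0.0313), and 74.1% of the words of Bnip3 were shared with other genes. Of the 9 members 0 rose and 0 fell by limma, and 0 passed at an unadjusted p under 0.05, against 0.021% of genes that rose, 0.0% that fell and 347 genes (3.64%) with an unadjusted p under 0.05. The estimates ran from -0.11 for Eif5a to 0.40 for Oaz1, whose 95% interval of -1.13 to 1.92 was the widest. Odc1 was at -0.10 (95% interval -0.29 to 0.09), Srm at -0.11 (-0.38 to 0.16) and Sms at 0.11 (-0.15 to 0.37). For Dhps and for Dohh, the hypusination enzyme genes, the estimates were 0.04 and -0.12.

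Whether the response to both agents differed from the sum of the single responses was tested with an interaction term. Of all 9535 genes 0 passed in either direction with limma, and 275 (2.88%) had an unadjusted p under 0.05. That is 0.0% of genes higher and 0.0% lower after adjustment. The fitted term sets the Dex difference with DMOG against the mean of both pairs without DMOG, 1 of which is the CD71 pair, a sort with no DMOG arm, so it mixes sorts. Among the members that unadjusted count was 1, Oaz1, with an estimate of 2.01 (SE 0.55, limma adjusted p = 0.999). Within the CD71/CD24a sort, Oaz1 was at 24.4 with both agents, 12.9 with Dex, 15.4 with DMOG and 16.3 with water, so only the arm with both agents stood above water. Within that sort the Oaz1 Dex difference was 0.95 higher with DMOG than without it, and 0.21% of tested genes were as far from 0. With 1 library an arm this contrast has no error of its own. Srm was at 291 with both agents, 334 with Dex, 356 with DMOG and 362 with water, and within the sort its Dex difference with DMOG minus that without DMOG was -0.17. Its fitted term, over both sorts, was -0.28 (SE 0.20, limma adjusted p = 0.999).

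Over all 9 libraries Srm varied most, from 15.1 in Ter119+ cells to 550.3 in the CD71 Dex culture, a ratio of 36.5. Azin1 varied 14.9-fold, Sms 13.5-fold, Odc1 13.3-fold, Oaz1 11.2-fold, Amd1 4.73-fold, Sat1 3.51-fold and Dhps 2.498-fold. Eif5a varied least, 1.91-fold. As deposited Srm still varied most (90.9-fold) and Eif5a least (4.91-fold), but the ranks between them changed. Sms then varied 37.5-fold, Oaz1 9.82-fold, Sat1 9.72-fold, Amd1 8.37-fold, Dhps 6.22-fold, Azin1 5.90-fold and Odc1 5.26-fold. The ratio of Eif5a to its modifying enzyme gene Dhps stayed between 31.7 and 57.4 in the 9 libraries.

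For 4 members the genes with the most similar profile were named by the smallest root mean square distance between centred log2 profiles over the 9 libraries, among 5809 genes that averaged 10 normalised RPKM or more. They were Tuba1c (distance 0.224), Gclm (0.230) and Hipk2 (0.281) for Odc1. For Srm they were Rrp9 (0.159), Grwd1 (0.174) and Fpgs (0.191), of which Rrp9 was at 73.4 in BFU-E, 63.0 in CFU-E and 3.54 in Ter119+ cells. For Eif5a they were Rcc1 (0.0527), Nacc1 (0.0637) and Letm1 (0.0746), and for Sat1 Rbm8a (0.107), Hnrnpd (0.116) and Zcchc9 (0.120). These distances describe 9 libraries in which the Ter119+ library carries most of the spread of Odc1 and Srm.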

How the data were processed

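Sorted fetal liver cells were profiled by paired-end mRNA sequencing from 300 bp gel bands, per the labels' protocols. The authors deposited RPKM, 1 value for each of 23041 RefSeq records per library, and the submitters' processing notes name build mm9. The sources used here do not give the aligner, the counter, strand use or the treatment of shared reads. In the 4 libraries of the CD71/CD24a sort no value is 0 and 5954 to 7412 are exactly 1, which were read as 0. Symbols came from RefSeq (22397 records) and GENCODE (114), both GRCm38, and 530 records had none. For the 2158 names with several records the one with the highest mean was kept. Depth was recovered from steps between low values (up to 10 reads, 67.9% to 70.9% whole within 0.1 reads, 20% by chance), and exact (Clopper-Pearson) intervals, approximate for that reason, cover counting error only. Nothing says that cultures of a sort were replicated, so p-values measure the spread between single libraries.

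Levels were divided by a median-ratio factor per library and compared as log2(normalised RPKM + 1), which understates changes of low genes. Fresh cells and sorts were compared by a 2-fold rule among genes at 1 or more in either library. Cultures were tested with limma 3.58.1 (R 4.3.3, empirical Bayes with a mean-variance trend, two-sided, Benjamini-Hochberg over all genes with a mean of at least 1), which left 2 residual degrees of freedom, 1 for the interactions. The pairing comes from the protocol, which divided the cells of a sort between arms, and the fit was tested on simulated data. All 9 members are named. Other genes come from a list of 24 and are named past a threshold or at 50 or more. The members and lists were chosen with earlier results of these data known. Sequences come from RefSeq and GENCODE (GRCm38), and no mm9 coordinate is given. Alternatives were the pseudocount, scaling, exact 1 kept as deposited, the sum over records, the filter, the trend, the block, and leaving out pairs or libraries.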

Additional observations from a re-analysis of the deposited data

Results flagged for a closer look

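The antizyme gene Oaz1 gave different Dex differences in the 2 sorts. On the scale of log2(normalised RPKM + 1) the Dex difference was 2.59 higher in the CD71/CD24a sort than in the CD71 sort (SE 0.27, 95% interval 2.00 to 3.18, limma adjusted p = 0.000144, 1 residual degree of freedom). This test was added after the Oaz1 values were seen, so it describes the gene that prompted it and is no independent evidence. The CD71 side is 1 pair, and the 2 CD71/CD24a pairs of Oaz1 alone lay 0.95 apart, so sort and preparation cannot be told apart. The difference rests on the CD71 water library, where Oaz1 was at 144, beside 12.9 to 25.9 in the other 5 cultures.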

How the results depend on the processing

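Leaving out the scaling factors moved the Ter119+ results. Against CFU-E, 6 members were then lower, with 788 genes higher and 5618 lower. Against BFU-E, 5 members were lower, with 904 genes higher and 6246 lower. The Oaz1 difference turned to -0.059, beside 1.25 with the factors, and the Amd1 difference to -0.52, beside 0.55. In the CD71/CD24a water culture 0 members were then lower than in fresh BFU-E. Between the sorts in water 361 genes were higher without the factors and 346 with a pseudocount of 0.1, and with Dex 660 and 667, with 1 member lower at the latter pseudocount. The interaction estimate of Amd1 turned to -0.025 without the factors.

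For Dex, without a filter 18 genes rose and 3 fell. Without the pairing block 12 rose and 2 fell, and 0 members were called with or without the block. Leaving out 1 pair at a time, 109 to 491 genes rose and 35 to 681 fell, and 0 to 1 members rose (Sat1, without the CD71 pair) and 0 to 1 fell (Oaz1, without the pair with DMOG). Over these fits the Dex estimate ran from -1.38 to 0.16 for Oaz1 (positive without the CD71 pair), from -0.018 to 0.082 for Eif5a (negative without the CD71 pair) and from -0.057 to 0.093 for Sms (negative without the pair with DMOG).

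For DMOG, 0 genes rose with a pseudocount of 0.1 or without a filter, 5 with records summed, and 85 rose and 36 fell over the 4 CD71/CD24a libraries alone. Leaving out 1 library at a time, 1 to 15 rose and 0 to 2 fell. The DMOG estimates that changed sign ran from -0.25 to 0.028 for Srm, from -0.028 to 0.24 for Sms, from -0.60 to 1.40 for Oaz1 and from -0.064 to 0.090 for Sat1, each turning without the library with both agents. Sat1 also turned without the water library. Amd1 ran from -0.18 to 0.011, turning without the Dex library, and Azin1 from -0.21 to 0.14, turning without the DMOG library. No member was called for DMOG in 108 estimates or for the interaction in 54. The cause of these moves was not tested. Leaving out a library from the interaction leaves no residual degrees of freedom. Depth limits Sat1 and Sms in Ter119+ cells, with 24 recovered reads each.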
